A study of Mus musculus with 8 samples.

Results

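miR-129, miR-138 and miR-218 are brain microRNAs that are each made from a pair of genomic loci. In each family both hairpins give the same 5p strand, while the 3p strands carry the number of their locus. A 3p strand therefore marks its locus, and the 5p strand is counted over both loci together. The members were chosen by name as these 3 shared 5p strands and the 6 locus-numbered 3p strands, and all 9 were present among the 1915 mature miRNA names measured. The data came from 8 small RNA libraries of prefrontal cortex from C57BL/6 mice (mmu- marks mouse miRNA names) at 12 weeks of age, of which 4 were from Fkbp5 knockout mice (replicates 1, 2, 4 and 5) and 4 from wild-type mice (replicates 1, 2, 3 and 4). The labels give no further treatment, no sex and no description of how the knockout allele was made. They do not say that the libraries are separate animals, so the p-values below measure the spread between these samples, which may be technical. The comparison asks whether loss of Fkbp5, an Hsp90-bound immunophilin that dampens hormone binding by the glucocorticoid receptor, goes with a different level, locus usage or arm usage of these miRNAs.

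A miRNA hairpin is cut into a duplex of its 5p and 3p arms, and usually 1 of the arms is kept in an Argonaute protein while the other is lost. The kept strand finds its targets mainly through its seed, bases 2 to 8. In rodent neurons, miR-129-5p is known to repress the potassium channel Kv1.1 and miR-138-5p to limit dendritic spine size through the depalmitoylating enzyme Lypla1. miR-218 is encoded within the axon guidance genes Slit2 and Slit3, is prominent in motor neurons, and in mouse prefrontal cortex is known as a repressor of the netrin receptor Dcc that has been tied to the response to chronic stress.

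The mature sequences show what the families share and what tells their loci apart. RefSeq (GRCm38.p6) gave a mature sequence for 8 of the 9 members, printed here 5′ to 3′ with the seed in capitals, and miR-129-1-3p is named only.
mmu-miR-129-5p: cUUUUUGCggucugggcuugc
mmu-miR-129-2-3p: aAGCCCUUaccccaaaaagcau
mmu-miR-138-5p: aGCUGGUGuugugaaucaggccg
mmu-miR-138-1-3p: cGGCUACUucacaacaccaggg
mmu-miR-138-2-3p: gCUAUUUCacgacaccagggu
mmu-miR-218-5p: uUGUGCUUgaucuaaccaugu
mmu-miR-218-1-3p: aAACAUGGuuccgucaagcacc
mmu-miR-218-2-3p: cAUGGUUCugucaagcaccgcg
The 8 strands have 8 different seeds, so no printed member shares its seed with another. The seed of miR-129-1-3p, which has no printed sequence, was not compared. The 3p strands of the 2 miR-138 loci start 2 bases apart when aligned, which gives them different seeds, and within the 20 bases that overlap they differ at 2 positions, C7U and A13G (counted from the 5′ end of miR-138-1-3p, whose base is given first). The 3p strands of the 2 miR-218 loci start 3 bases apart and differ within 19 shared bases at C12U (counted from the 5′ end of miR-218-1-3p). Among all RefSeq mouse miRNAs, miR-7002-3p has the seed of miR-218-5p and miR-496b that of miR-218-1-3p, and both were at 0 in every library.

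The miR-129 loci are the hardest to tell apart by sequence. The Mir129-1 hairpin holds a stretch that matches miR-129-2-3p in all but 1 of its 22 bases, the base in capitals.
miR-129-2-3p, chr2:94241376-94241397, minus strand: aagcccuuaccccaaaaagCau
Mir129-1 hairpin, chr6:29022667-29022688, plus strand: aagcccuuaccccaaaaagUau
The difference is C20U, counted from the 5′ end of miR-129-2-3p. A read that ends before base 20 is therefore the same from both loci, and how such reads were assigned is not given in the sources used here, so the miR-129 locus shares below rest on 1 base.

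The 6 hairpins lie on 6 chromosomes (GRCm38, the assembly that mm10 names). Mir218-1 lies in an intron of Slit2 (chr5:48223942-48224051, plus strand) and Mir218-2 in an intron of Slit3 (chr11:35616816-35616925, plus strand), each on the strand of its host gene. Mir129-2 lies in an intron of the long noncoding RNA Mir670hg (chr2:94241364-94241453, minus strand), and Mir129-1 overlaps an exon of the long noncoding RNA Gm3294 (chr6:29022619-29022691, plus strand). Mir138-1 overlaps an exon of the transcribed pseudogene Gm47135 (chr9:122682876-122682974, plus strand), and Mir138-2 an exon of the long noncoding RNA C78859 (chr8:94324311-94324381, plus strand), 4.82 kb from the nearest protein-coding gene, Slc12a3. Over the aligned part, the hairpins of the 2 loci were identical at 80.3% of positions for miR-129, 67.1% for miR-138 and 72.2% for miR-218. The miR-218 hairpins, whose arms differed most in level, are printed with both arms in capitals, the 5p arm first.
Mir218-1: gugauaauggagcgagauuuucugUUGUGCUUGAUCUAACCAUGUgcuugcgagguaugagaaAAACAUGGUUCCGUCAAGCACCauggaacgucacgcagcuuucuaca
Mir218-2: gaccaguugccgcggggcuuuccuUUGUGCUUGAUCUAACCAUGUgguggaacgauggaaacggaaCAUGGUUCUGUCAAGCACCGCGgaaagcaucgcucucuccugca

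The libraries were of similar size, and neuron-enriched miRNAs were abundant in them. Deposited values summed to between 16.2 and 21.6 in units of 1000000 per library. Values were rescaled between libraries with factors from 0.817 to 1.21, and levels below are these rescaled values unless deposited values are named. All 18 other neuron-enriched miRNAs listed were measured, led by miR-128-3p (23.8% of a library on average) and miR-9-5p (11.3%). Markers of hindbrain and spinal cord from the Hox clusters, where miR-218 is also prominent, summed to 209.9 to 486.6 in the knockout and 380.1 to 628.9 in wild type, against 137614 to 183990 in the knockout and 160519 to 196720 in wild type for miR-218-5p alone. Of that list 2 of 5 were tested. miR-10a-5p, its most abundant, was at a log2 fold change of -0.65 ± 0.24 (unadjusted p = 0.0185, adjusted p = 0.907 by limma) and miR-10b-5p, named for its size after its values were seen, at -1.01 ± 0.35 (unadjusted p = 0.0154, adjusted p = 0.907 by limma). Their part in the members' values was not tested. Small RNA libraries do not measure Fkbp5 messenger RNA, and the genotype labels were not checked.

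miR-218-5p was the most abundant member, followed by miR-129-5p and miR-138-5p, and every 3p strand was below these. By mean share of a library miR-218-5p ranked 14th of 1915 names, at 9107 per 1000000. miR-129-5p ranked 38th at 2454 per 1000000 and miR-138-5p 65th at 588 per 1000000. In each of the 8 libraries miR-218-5p was 2.62 to 4.55 times miR-129-5p, and miR-129-5p was 3.43 to 5.19 times miR-138-5p, so the order of the 5p strands held in every library. These strands are all 21 to 23 bases long and are read as whole molecules, so no length correction applies, but each sequence is ligated and amplified with its own efficiency, which was not measured here. The 9 members together made up 1.01% to 1.41% of a library.

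**Figure D1:**
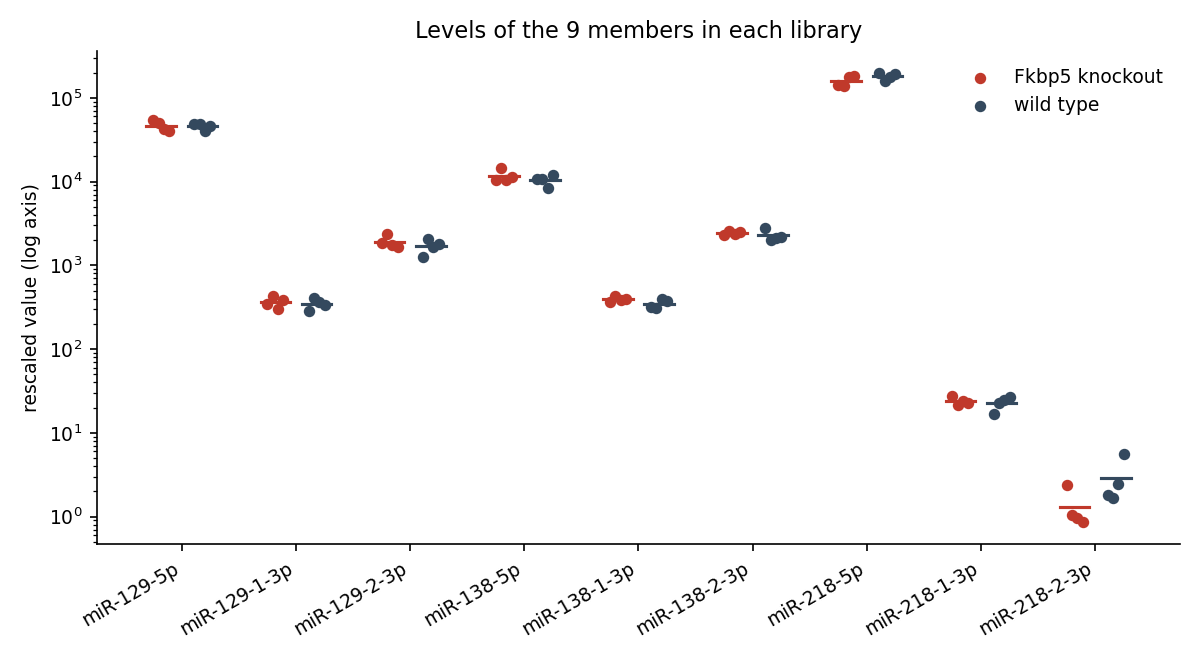
Rescaled value on a log axis for each of the 9 members, with 1 point per library (4 Fkbp5 knockout, 4 wild type) and a short line at each group's mean. The knockout and wild-type points overlap for every member, and the members span from miR-218-5p at 137614 or more down to miR-218-2-3p near 2.

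mmu-miR-218-5p, the abundant product of both Slit hairpins, was lower on average in the knockout, but the groups overlapped. Its rescaled values were 141667, 137614, 176527 and 183990 in knockout replicates 1, 2, 4 and 5, and 196720, 160519, 176443 and 192466 in wild-type replicates 1, 2, 3 and 4. Knockout replicates 1 and 2 lay below every wild-type library, while knockout replicates 4 and 5 lay inside the wild-type range. The means were 159950 ± 23706 in the knockout and 181537 ± 16509 in wild type (SD, n = 4 each). The log2 fold change was -0.19 ± 0.12 (SE), with a 95% interval from -0.45 to 0.07 and an adjusted p of 0.996 by limma. Of the members it had the smallest unadjusted p, 0.136 by limma, and it did not pass.

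mmu-miR-129-5p, the repressor of Kv1.1, was at nearly the same mean level in both genotypes. Its values were 53982, 49342, 42496 and 40402 in knockout replicates 1, 2, 4 and 5, and 48345, 48134, 40608 and 46577 in wild-type replicates 1 to 4. The knockout libraries spread around the whole wild-type range. The means were 46555 ± 6252 in the knockout and 45916 ± 3626 in wild type (SD, n = 4 each). The log2 fold change was 0.01 ± 0.11 (95% interval from -0.24 to 0.26). The sign of so small a difference changed with the libraries used: it was -0.061 without knockout replicate 1.

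mmu-miR-138-5p, the spine-limiting strand, had values of 10402, 14402, 10355 and 11303 in knockout replicates 1, 2, 4 and 5, and 10739, 10669, 8378 and 11956 in wild-type replicates 1 to 4. Knockout replicate 2 was the highest library and wild-type replicate 3 the lowest, with the other 6 lying close together. The means were 11616 ± 1908 in the knockout and 10435 ± 1494 in wild type (SD, n = 4 each). The log2 fold change was 0.15 ± 0.14 (95% interval from -0.16 to 0.46). It was 0.045 without knockout replicate 2 and 0.051 without wild-type replicate 3.

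The 3p strands that mark the loci also overlapped between genotypes. mmu-miR-129-2-3p had values of 1837, 2358, 1735 and 1676 in knockout replicates 1, 2, 4 and 5, and 1257, 2063, 1658 and 1806 in wild-type replicates 1 to 4, with wild-type replicate 1 the lowest. Its log2 fold change was 0.17 ± 0.17, with a 95% interval from -0.19 to 0.54, and 0.038 without wild-type replicate 1 or 0.066 without knockout replicate 2. miR-129-1-3p ranged from 300.8 to 426.5 in the knockout and from 286.4 to 405.4 in wild type, a log2 fold change of 0.06 ± 0.16. miR-138-1-3p was at 0.17 ± 0.13 and miR-138-2-3p at 0.10 ± 0.12, the second of which went up to 0.20 when wild-type replicate 1 was left out and down to 0.040 when wild-type replicate 2 was. Replicate 1 of wild type held both the highest miR-138-2-3p (2781, against 1977 to 2190 in the other wild-type libraries and 2286 to 2541 in the knockout) and the lowest miR-129-2-3p.

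The miR-218 3p strands were near the lower end of what these libraries measured. miR-218-1-3p was at 27.1, 21.7, 24.2 and 22.4 in knockout replicates 1, 2, 4 and 5, and at 17.0, 22.4, 24.5 and 26.4 in wild-type replicates 1 to 4, a log2 fold change of 0.09 ± 0.23. miR-218-2-3p had deposited values of 2, 1, 1 and 1 in knockout replicates 1, 2, 4 and 5, and 2, 2, 2 and 5 in wild-type replicates 1 to 4. It was the member that did not pass the filter on low values (a rescaled value of 10 in at least 4 libraries), and values this small do not separate the groups.

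Counted over the members, 8 of 9 passed that filter, and by limma 0 of the 8 passed an adjusted p of 0.05. The background was 0 of 600 tested miRNAs past that threshold (0%), with 24 at an unadjusted p under 0.05 (4%), and 0 members were among those 24. The knockout and wild-type libraries were apart for 0 of the 8 members, against 1.67% of all tested miRNAs. Mean log2 values were higher in the knockout for 7 of the 8, with miR-218-5p lower, and for 53.8% of all tested miRNAs (66.4% with upper quartile scaling). The members' median log2 fold change was 0.10, beside 0.01 over all 600. Adjusted p was 0.996 for each member by limma. The 95% intervals of the 8 all lay within 1 log2 unit of 0, as they did for 86.8% of all tested miRNAs. Their bounds differed by member, from -0.24 to 0.26 for miR-129-5p and from -0.45 to 0.07 for miR-218-5p, and the highest was 0.59.

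**Figure D2:**
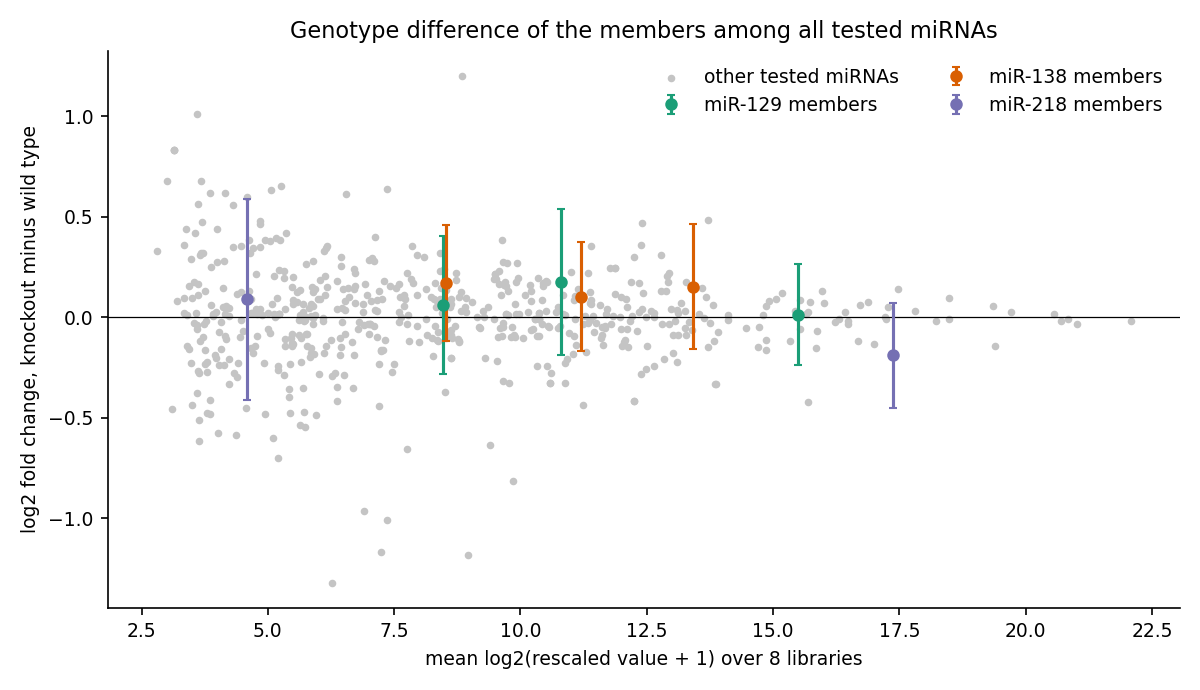
Log2 fold change, knockout minus wild type, against mean log2(rescaled value + 1) over 8 libraries, for 600 tested miRNAs (grey) and the 8 tested members (coloured by family, bars are 95% intervals from limma). Each coloured bar crosses 0, and the members lie within the grey cloud, from -0.19 for miR-218-5p to 0.17 for miR-129-2-3p.

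Locus usage differed in direction between the families. Locus 2 gave most of the locus-specific 3p strands of miR-129 and miR-138, and locus 1, the hairpin within Slit2, gave most of those of miR-218. Shares were computed within a library, so scaling between libraries does not enter. The strands compared differ in sequence, so a share is one of measured values and not of molecules made at each locus.

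For miR-129, the locus 1 share of the 3p strands was 15.7%, 15.3%, 14.8% and 18.8% in knockout replicates 1, 2, 4 and 5, and 18.6%, 16.4%, 18.2% and 15.7% in wild-type replicates 1 to 4. The groups overlapped, with means of 16.2% ± 1.79 in the knockout and 17.2% ± 1.37 in wild type (SD, n = 4 each). Over all libraries locus 2 was 4.33 to 5.77 times locus 1. The log2 ratio of locus 1 to locus 2 changed by -0.11 ± 0.16 (95% interval from -0.43 to 0.20, adjusted p = 0.909 by limma, two-sided exact permutation p = 0.343).

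For miR-138, the locus 1 share was 13.7%, 14.3%, 14.1% and 13.7% in knockout replicates 1, 2, 4 and 5, and 10.3%, 13.5%, 15.5% and 14.7% in wild-type replicates 1 to 4. The knockout libraries lay close together inside the wider wild-type range, of which replicate 1 was the lowest. The means were 13.9% ± 0.305 in the knockout and 13.5% ± 2.28 in wild type (SD, n = 4 each), and the log2 ratio changed by 0.07 ± 0.16 (95% interval from -0.25 to 0.39, adjusted p = 0.909 by limma, two-sided exact permutation p = 0.857). Without wild-type replicate 1 that change was -0.071. In all 8 libraries the locus 1 share of miR-129 was above that of miR-138, by 0.706 to 8.23 percentage points.

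For miR-218, the locus 1 strand made up 92.0%, 95.5%, 96.2% and 96.3% in knockout replicates 1, 2, 4 and 5, and 90.5%, 93.1%, 90.9% and 82.8% in wild-type replicates 1 to 4. These shares rest on deposited values of 1 to 5 for locus 2 against 19 to 27 for locus 1, so 1 unit more or less of locus 2 moves a share by several points. The locus 2 strand averaged below the minimum of 20 set for both loci, and the family was left out of the main ratio test. The shares overlapped between the genotypes. The minimum was also lowered to 1, chosen after the data were seen. The log2 ratio of locus 1 to locus 2 was then 0.92 ± 0.31 higher in the knockout. Its unadjusted p was 0.0187 and its adjusted p 0.374 over 20 families by limma, and it did not pass. That SE is moderated over all 20 families, some of far higher values, so it may understate the noise of values this small. With no filter, miR-218-2-3p alone was at a log2 fold change of -0.68 ± 0.45 (unadjusted p = 0.147 by limma).

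All families with a pair of loci, the members included, give the scale for these shares. Of 28 such pairs named in the files, 25 were of families other than the members. Both locus-specific arms were at a mean of at least 20 in 11 pairs, miR-129 and miR-138 among them. Locus 2 was the higher in 7 of the 11, again with miR-129 and miR-138 among them. Their mean locus 1 shares ran from 8.62% for let-7c to 72.5% for miR-128. The let-7c value is not a clean locus share. Its locus 2 strand, let-7c-2-3p, had the same mean deposited value as let-7a-1-3p (1545) and the same log2 fold change (-0.33). That strand is therefore not told apart from let-7a, although let-7c is kept in the counts here. The next lowest share was 10.9%, for miR-30c. By the log2 ratio of the loci, the nearest outside the members to miR-138 (13.7% over all libraries) was miR-135a, at 11.3%, and the nearest to miR-129 (16.7%) was miR-26a, at 23.4%. By limma 0 of the 11 locus ratios differed between genotypes at an adjusted p of 0.05 (0%), and 0 had an unadjusted p under 0.05 by limma or by the exact test, whose smallest possible p with 4 libraries against 4 is 0.0286.

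**Figure D3:**
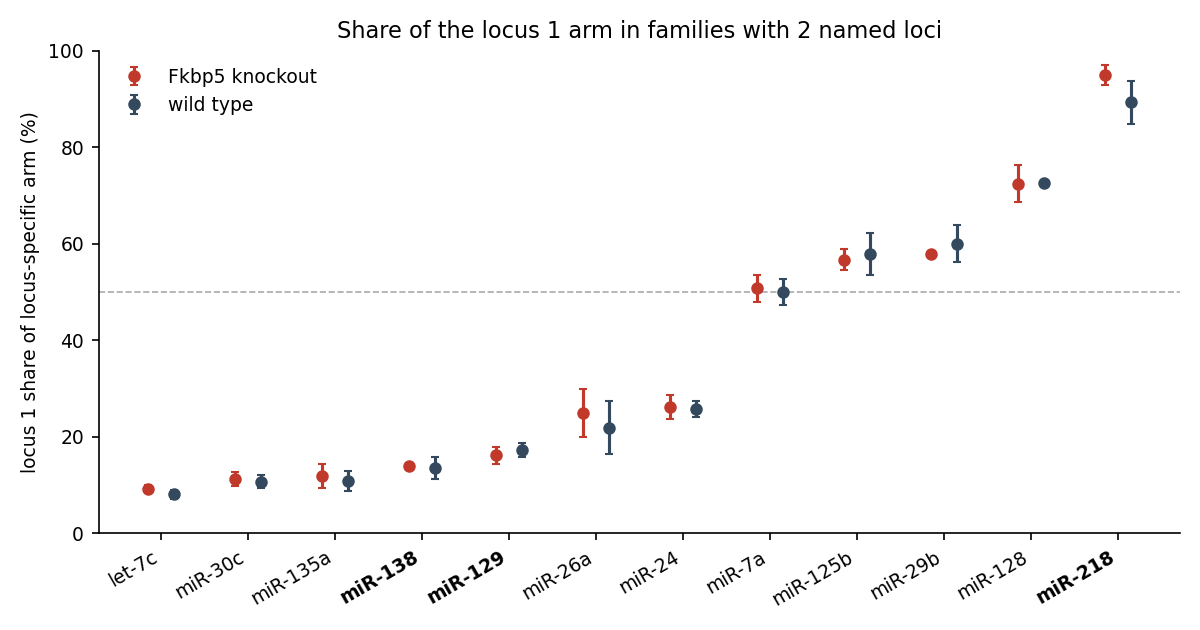
Mean locus 1 share of the locus-specific arm in percent, with SD over 4 libraries each, in Fkbp5 knockout (left point) and wild type (right point), for the 11 tested families and miR-218 (bold names are the families described here). miR-138 and miR-129 lie at 13.5% to 17.2%, miR-218 lies highest, and the genotypes lie close together within each family, with miR-218 the farthest apart on very low values. The let-7c share is taken against a strand that is not told apart from let-7a.

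Arm usage set the families further apart than locus usage did. The 5p strand was above the summed 3p strands in all 3 families and all 8 libraries, but by about 4 times in miR-138, about 22 times in miR-129 and by 4804 to 10498 times in miR-218. In miR-138 the strand that is usually discarded was therefore still 17.1% to 23.2% of the family's values, against 3.09% to 5.34% in miR-129 and at most 0.0208% in miR-218.

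For miR-218 the ratio of 5p to 3p was 4804, 6042, 7021 and 7898 in knockout replicates 1, 2, 4 and 5, and 10498, 6676, 6555 and 6025 in wild-type replicates 1 to 4. These ratios rest on summed 3p deposited values of only 21 to 29, so a few units more or less move a ratio strongly. Wild-type replicate 1 was the highest and knockout replicate 1 the lowest, and the other 6 overlapped. The log2 ratio was 12.60 ± 0.31 in the knockout and 12.80 ± 0.36 in wild type (SD, n = 4 each), a change of -0.20 ± 0.22 (95% interval from -0.67 to 0.28, adjusted p = 0.973 by limma, two-sided exact permutation p = 0.486). With wild-type replicate 1 left out the change was -0.019, and with knockout replicate 1 left out it was -0.062.

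For miR-129 the ratio was 24.8, 17.7, 20.9 and 19.6 in knockout replicates 1, 2, 4 and 5, and 31.3, 19.5, 20.03 and 21.7 in wild-type replicates 1 to 4, with wild-type replicate 1 again the highest. The log2 ratio was 4.36 ± 0.20 in the knockout and 4.50 ± 0.32 in wild type (SD, n = 4 each), a change of -0.14 ± 0.19 (95% interval from -0.56 to 0.28, two-sided exact permutation p = 0.571). Without wild-type replicate 1 the change was 0.013.

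For miR-138 the ratio was 3.93, 4.86, 3.79 and 3.89 in knockout replicates 1, 2, 4 and 5, and 3.46, 4.67, 3.31 and 4.66 in wild-type replicates 1 to 4. In the knockout, replicate 2 was above the other 3, while the wild-type libraries fell into a lower pair (replicates 1 and 3) and a higher pair (replicates 2 and 4). The log2 ratio was 2.03 ± 0.17 in the knockout and 1.99 ± 0.27 in wild type (SD, n = 4 each), a change of 0.04 ± 0.18 (95% interval from -0.35 to 0.43, two-sided exact permutation p = 0.886). It was -0.045 without wild-type replicate 3, -0.039 without knockout replicate 2 and -0.023 without wild-type replicate 1.

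The families were next ranked among the 159 in which neither arm averaged below 20. There miR-218 was 3rd by the ratio of 5p to 3p, after miR-26a and let-7f. miR-129 ranked 39th and miR-138 64th. Families with a scarcer arm were left out, so these ranks hold only within the 159. miR-218 itself was near that minimum, with summed 3p deposited values of 21 to 29. The 5p arm was the higher one in 90 of the 159. By limma 0 of the 159 arm ratios differed between genotypes at an adjusted p of 0.05 (0%), 3 had an unadjusted p under 0.05 (1.89%), and 1 had an exact p under 0.05, and the 3 families described here were not among them.

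**Figure D4:**
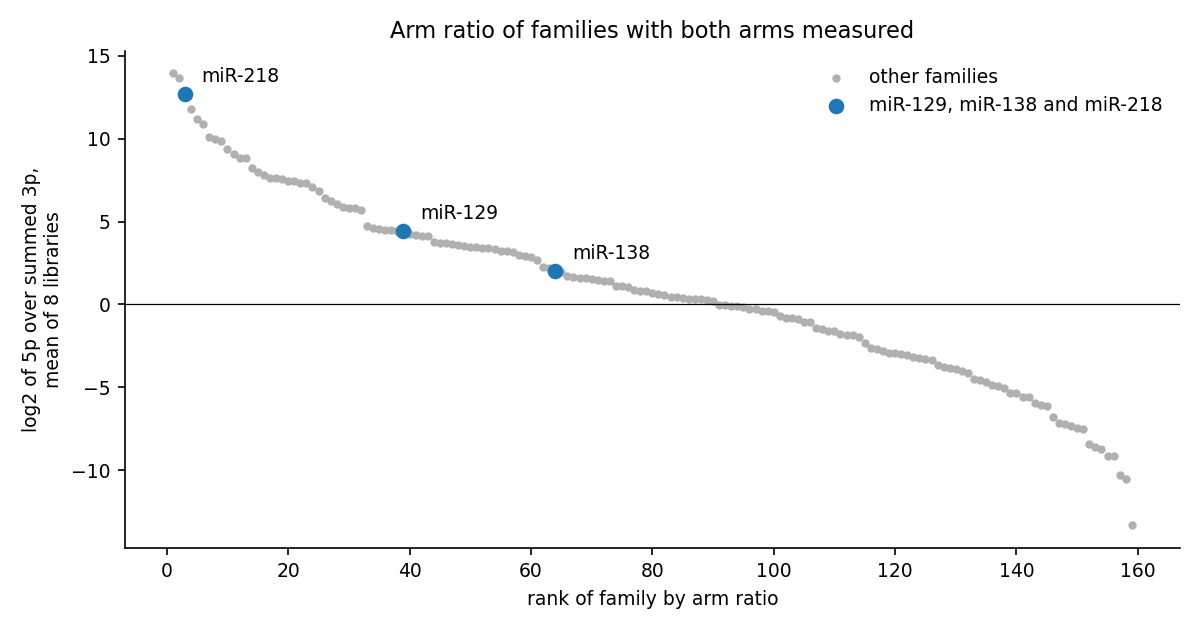
Log2 ratio of the 5p arm over the summed 3p arms, mean of 8 libraries, for 159 families ranked from the highest to the lowest (grey), with the families described here in blue. Families in which either arm averaged below 20 are not among the 159. miR-218 is 3rd at 12.70, miR-129 is 39th at 4.43 and miR-138 is 64th at 2.01.

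The profile of each 5p strand over the 8 libraries was compared with that of every other tested miRNA, as the root mean square difference of log2 values centred on each miRNA's own mean. Nearest to miR-129-5p were miR-3086-5p (0.0709), miR-323-3p (0.0729) and miR-342-5p (0.0753), where the median over 599 miRNAs was 0.275. Nearest to miR-138-5p were miR-708-5p (0.0991), itself neuron-enriched, miR-496a-3p (0.130) and miR-106b-3p (0.134), with a median of 0.310. Nearest to miR-218-5p were miR-382-3p (0.0750), miR-665-3p (0.101) and miR-598-3p (0.121), with a median of 0.322.

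The other strand of the same hairpin was not the nearest profile in any family. Of 599 miRNAs ordered by likeness to miR-129-5p, miR-129-1-3p was 226th and miR-129-2-3p 256th. In the order for miR-138-5p, miR-138-2-3p was 57th and miR-138-1-3p 81st, and in that for miR-218-5p, miR-218-1-3p was 246th. These distances are a description over 8 libraries that share their scaling, and miRNAs of low level have noisier profiles.

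Other neuron-enriched miRNAs gave no call either. Of 18 listed and tested, 0 passed an adjusted p of 0.05 by limma and 0 had an unadjusted p under 0.05, and mean log2 values were higher in the knockout for 12 and lower for 6, with a median log2 fold change of 0.05. They ran from miR-9-3p, at -0.14 ± 0.11, to miR-330-3p, at 0.23 ± 0.13. miR-128-3p was at -0.02 ± 0.15 and miR-9-5p at -0.04 ± 0.09. The range of the members, from -0.19 to 0.17, was of the same size.

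Among markers of other cells, 0 miRNAs of any list passed an adjusted p of 0.05 by limma. Apart from both tested Hox cluster markers, 1 of 4 in the oligodendrocyte list (miR-219a-5p, log2 fold change -0.60 ± 0.21, unadjusted p = 0.0149) and 1 of 4 in the endothelium and smooth muscle list (miR-143-3p, -0.42 ± 0.17, unadjusted p = 0.0271) had an unadjusted p under 0.05 by limma, each with an adjusted p of 0.907, and 0 in the remaining lists. miR-219a-5p was named for that p after its values were seen. Its mean level was low, at 27.2 in the knockout and 41.8 in wild type. The most abundant oligodendrocyte marker, miR-219a-2-3p, was at -0.15 ± 0.15 (unadjusted p = 0.326 by limma). The oligodendrocyte list summed to 19516 to 25777 in the knockout and 21220 to 29912 in wild type, led by miR-219a-2-3p. Endothelium and smooth muscle, led by miR-143-3p, summed to 54810 to 86120 in the knockout and 72336 to 101414 in wild type, and all 4 of each of these lists were lower in the knockout by mean log2 value, with medians of -0.18 (oligodendrocyte) and -0.10 (endothelium and smooth muscle) on the log2 scale. Epithelium and olfactory bulb, led by miR-200b-3p, summed to 298.2 to 2077 in the knockout and 506.8 to 3726 in wild type, with all 4 tested miRNAs lower, at a median log2 fold change of -1.18. Over all 600 tested miRNAs, 53.8% were higher in the knockout by mean log2 value, and 4% had an unadjusted p under 0.05 by limma. Arms of the same hairpin, such as miR-338-3p and miR-338-5p, were counted separately in these lists. The part of these markers in the members' values was not tested. In the other lists, led by miR-150-5p (microglia and leukocytes), miR-486a-5p (red blood cells), miR-204-5p (choroid plexus and ependyma) and miR-1a-3p (striated muscle), the groups also overlapped. In bulk tissue fewer cells of a type and less RNA per cell cannot be told apart.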

How the data were processed

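Each deposited file lists 1 value for each of 1915 mature miRNAs in 1 library. The authors name these normalized counts, per the file headers, and the deposited values were therefore treated as a score without a defined unit, to which no count model was applied. Per the submitters' processing notes, cutadapt 1.11, Bowtie 1.1.2, HTSeq 0.6.1p1, edgeR and build mm10 are named, and settings are not given in the sources used here, among them how reads that match several loci were assigned. The values are whole numbers whose totals differ between libraries, the depth in reads is unknown, and no counting interval is given.

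Values were rescaled by a weighted trimmed mean of log ratios (30% of ratios and 5% of levels trimmed) to the median library. Tested were miRNAs that reached a rescaled value of 10 in 4 or more libraries and summed to 15 or more, which left 600 holding 99.99% of all values. log2(rescaled value + 1) was compared by genotype with limma 3.58.1 (R 4.3.3, mean-variance trend, Benjamini-Hochberg over all 600 at 0.05). Fold changes are on that scale, which understates changes of low miRNAs. Log2 ratios of loci and of arms, with 0.5 added, were tested with limma over all families with both sides at a mean of at least 20. Exact tests were two-sided over 70 arrangements. The fits were tested on simulated data. miRNA names were matched by name to RefSeq sequences (GRCm38.p6).

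Named by rule are all members, the 3 miRNAs nearest in profile to each 5p strand, the most abundant miRNA of each marker list (2 of the neuron-enriched list, with its highest and lowest fold change), and the extreme and nearest pairs of loci. Members and lists were chosen with earlier results of these data known. Replicate numbers were not taken as pairs. Other scalings, filters, pseudocounts, no trend, a replicate block and fits without 1 library served as alternatives.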

Additional observations from a re-analysis of the deposited data

Results flagged for a closer look

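In 30 groups of 4 libraries examined (9 members, 3 locus shares and 3 arm ratios in each genotype), 1 library stood apart by Dixon's criterion in each of 2 groups, and about 1.5 such groups arise by chance. The log2 ratio of 5p to 3p of miR-138 was 2.28 in knockout replicate 2, against 1.92 to 1.97 in the other knockout libraries. The rescaled value of miR-218-2-3p was 2.36 in knockout replicate 1, against 0.863 to 1.04 in the others, which corresponds to deposited values of 2 and 1.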

How the results depend on the processing

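Of 220 alternative values for 13 results (8 members, 2 locus ratios and 3 arm ratios), 0 passed the threshold, with a lowest adjusted p of 0.736 by limma, and 13 had the other sign. With 1 library left out, log2 fold changes ran from -0.061 to 0.079 for miR-129-5p (below 0 without knockout replicate 1 or 2 or wild-type replicate 3), from -0.032 to 0.15 for miR-129-1-3p (below 0 without knockout replicate 2 or wild-type replicate 1) and from -0.034 to 0.17 for miR-218-1-3p (below 0 without wild-type replicate 1). The change in locus ratio of miR-138 ran from -0.071 to 0.15, that in arm ratio of miR-129 from -0.23 to 0.013 and that of miR-138 from -0.045 to 0.12. For these 3 the omission of wild-type replicate 1 turned the sign, and for the miR-138 arm ratio that of knockout replicate 2 or wild-type replicate 3 did too. With the sign kept throughout, the ranges were -0.26 to -0.12 for miR-218-5p, 0.045 to 0.22 for miR-138-5p, 0.038 to 0.28 for miR-129-2-3p, 0.11 to 0.23 for miR-138-1-3p, 0.040 to 0.20 for miR-138-2-3p, -0.20 to -0.066 for the locus ratio of miR-129 and -0.30 to -0.019 for the arm ratio of miR-218. Only numbers 1, 2 and 4 occur in both genotypes, so a replicate block leaves out knockout replicate 5 and wild-type replicate 3. On these 6 libraries the values with and without the block were the same, at -0.27 for miR-218-5p and -0.020 for the arm ratio of miR-138. With the block 1 of 159 arm ratios passed (miR-154, not among the members) and without it 0, and the block changed no other call. The labels do not say that the numbers pair the libraries. Deviations of same-numbered libraries correlated at 0.0848, -0.0469 and 0.123, and 1 of the 6 correlated best with its own number. The ratio to miR-128-3p, the ratio fits on 6 libraries without a block and the lower minimum for locus ratios were chosen after seeing the data. Low values limit the miR-218 3p strands.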

Other observations

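A further hairpin, Mir129b, lies on the opposite strand of Mir129-2 (chr2:94241378-94241442, plus strand). Its 2 strands were near 0, with deposited values of miR-129b-5p from 1 to 2 in the knockout and 0 to 3 in wild type, and of miR-129b-3p from 0 to 2 in the knockout and 0 to 4 in wild type. Among pairs of loci too low to test, miR-219a was almost all from locus 2, with a locus 1 share of 0.115% in the knockout and 0.0998% in wild type, and miR-181a almost all from locus 1, at 98.9% in the knockout and 99.1% in wild type.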
